A study of Mus musculus with 6 samples.

Results

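The miR-99, miR-100 and miR-125 families are microRNAs (miRNAs) that mammals make from 3 related loci, each of which also carries a let-7 gene. Their levels were measured in the thymus of irradiated and control mice. The 9 mature strands of these families that were followed (mmu-miR-99a-5p, mmu-miR-99b-5p, mmu-miR-100-5p, mmu-miR-125a-5p, mmu-miR-125b-5p, mmu-miR-99b-3p, mmu-miR-125a-3p, mmu-miR-125b-1-3p and mmu-miR-125b-2-3p, written without the mouse prefix from here on) were looked up by name in a table of 1390 miRNAs, and all 9 were present. Thymus came from wild-type C57BL mice aged 5 weeks. In the irradiated mice (n = 3) the X-ray dose was 6 Gy, given from 40 cm away at 800 cGy/min, and they were killed 24 h later. Control mice (n = 3) had no irradiation and were killed at the same time. Each library is bulk tissue of the thymus, which is where T cells mature, and can hold immature lymphocytes (thymocytes), epithelium, fibroblasts, vessels and attached tissue. In such a sample a change in the share of cells of a type and a change in RNA per cell cannot be told apart.

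A miRNA is cut as a short duplex from a hairpin precursor. Usually the 5p or the 3p strand is kept and guides the silencing of messenger RNAs that match its seed (bases 2 to 8), while the other strand is mostly degraded. The miR-99 and miR-100 strands are known for lowering parts of the mTOR and insulin-like growth factor pathway, and in human cells the chromatin remodeller SNF2H (SMARCA5), which takes part in DNA repair. MiR-125b is known from blood stem cells, where it favours survival, and in human and zebrafish cells it lowers p53, the main transcription factor of the radiation response. MiR-125a, its paralogue, is likewise active in blood stem cells.

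The mature sequences show how the 9 strands relate to each other. They are given 5′ to 3′ as deposited, with the seed in capitals, and all 9 were identical to the RefSeq entries of the same name (GRCm38.p6).
miR-99a-5p: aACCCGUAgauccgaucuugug
miR-99b-5p: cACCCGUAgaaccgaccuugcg
miR-100-5p: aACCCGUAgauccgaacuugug
miR-125a-5p: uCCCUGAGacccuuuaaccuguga
miR-125b-5p: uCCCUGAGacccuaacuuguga
miR-99b-3p: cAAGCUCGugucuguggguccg
miR-125a-3p: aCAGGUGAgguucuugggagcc
miR-125b-1-3p: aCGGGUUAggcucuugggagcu
miR-125b-2-3p: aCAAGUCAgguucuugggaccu

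The 3 miR-99 and miR-100 5p strands share the seed ACCCGUA, which no other row of the table carries. MiR-99a-5p and miR-100-5p differ by 1 base of 22, the substitution U16A counted from the 5′ end of miR-99a-5p, so the way reads were assigned could split counts between them. MiR-99b-5p differs from miR-99a-5p by 4 substitutions (A1C, U11A, U16C and U21C). MiR-125a-5p and miR-125b-5p share the seed CCCUGAG and their first 13 bases, and a single further row, miR-351-5p, has that seed. The 4 listed 3p strands have 4 different seeds.

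The genes lie in 3 clusters, all on the plus strand (GENCODE M21, GRCm38). Mir99a (chr16:77598936-77599000), Mirlet7c-1 and Mir125b-2 (chr16:77646273-77646343) lie in introns of the long non-coding RNA Mir99ahg. Mir99a and Mirlet7c-1 also lie within the antisense protein-coding gene Gm11146, outside its exons. Mir100 (chr9:41531425-41531504), Mirlet7a-2 and Mir125b-1 (chr9:41581926-41582002) lie in introns of the non-coding transcript 3110039I08Rik. Mir100 also overlaps an exon of the antisense long non-coding RNA Gm48742, and Mir125b-1 an exon of the sense-intronic RNA Gm28119. The third cluster is the most compact, with Mir99b (chr17:17830188-17830257), Mirlet7e and Mir125a (chr17:17830812-17830879) inside the protein-coding gene Spaca6. There Mir99b and Mirlet7e are intronic, and Mir125a overlaps an annotated exon of Spaca6. MiR-125b-5p is made from both Mir125b-1 and Mir125b-2 and cannot be assigned to either, whereas the miR-125b 3p strands differ by 5 substitutions and each report on 1 hairpin.

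Relative to the other miRNAs of a library, all 9 strands rose after irradiation, by 1.73-fold to 7.68-fold. The largest of these, for miR-125a-3p, rests on few reads, and only its irradiated libraries met the low-count filter. The next largest was 3.89-fold, for miR-99a-5p. Amounts per thymus or per cell were not measured. Levels are CPM (read counts per library, set to a common total), scaled with trimmed-mean (TMM) factors, and values within a group are in the order of replicates 1, 2 and 3. A change was called at an edgeR quasi-likelihood p of 0.05 adjusted over all tested miRNAs (Benjamini-Hochberg). Of the 519 miRNAs tested, 61.3% were called in either direction: 27.7% were called higher and 33.5% lower (144 and 174 miRNAs, or 206 and 139 with upper-quartile factors), and the 9 strands are to be read against those shares. For each of the 9 every irradiated library lay above every control library, which held for 32% of all tested miRNAs. The median log2 fold change of the 9 was 1.36, against 0.01 over all tested miRNAs. Mice were housed 3 to a cage, and the labels do not say how cages or batches fell between the groups. The edgeR p-values weigh the difference between the groups against the spread between libraries. A cage or batch difference that ran along the groups would be counted in that difference.

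MiR-100-5p was the most abundant of the families. It measured 13553, 9528 and 11487 CPM in irradiated thymus, against 5098, 3852 and 4846 CPM in control thymus. Its log2 fold change was 1.33 ± 0.25 (SE, n = 3 mice per group), with an edgeR adjusted p of 0.00146. The lowest irradiated library stood far above the highest control library.

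MiR-99a-5p had the largest change among the 5p strands. Irradiated libraries held 6639, 10870 and 8142 CPM (50882, 91046 and 76689 reads), against 2466, 1904 and 2228 CPM in control libraries (17287, 20520 and 18160 reads). Control libraries were close together, and irradiated replicate 2 was the highest of the 6. The log2 fold change was 1.96 ± 0.27 (SE, n = 3 per group, edgeR adjusted p of 0.000198), a 3.89-fold difference.

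MiR-99b-5p, from the compact chromosome 17 cluster, changed less. It was at 2664, 2281 and 2714 CPM in irradiated thymus, against 1223, 998.7 and 1292 CPM in control thymus. The values of each group were tightly grouped, and the log2 fold change was 1.12 ± 0.23 (SE, n = 3 per group, edgeR adjusted p of 0.00236).

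MiR-125b-5p had the smallest change of the 9. Irradiated libraries held 2362, 2762 and 3108 CPM, against 1750, 1261 and 1741 CPM in control libraries. The log2 fold change was 0.79 ± 0.24 (SE, n = 3 per group, edgeR adjusted p of 0.0176), a 1.73-fold difference. This was the least secure call. The edgeR adjusted p was 0.0533 with library totals in place of TMM factors, 0.0765 without the low-count filter, 0.0589 without irradiated replicate 3 and 0.0823 without control replicate 2, within 0.00273 to 0.0823 over 13 alternatives.

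MiR-125a-5p was far less abundant and changed more. It was at 338, 469 and 393 CPM in irradiated thymus, against 144, 135 and 149 CPM in control thymus. Control libraries differed little among themselves (142.6 ± 7.19 CPM, SD, n = 3), and all irradiated libraries were more than that spread above them. The log2 fold change was 1.49 ± 0.25 (SE, n = 3 per group, edgeR adjusted p of 0.000817).

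The 3p strands, which are the minor strands of their hairpins, rose as well. MiR-99b-3p averaged 90.4 ± 15.8 CPM in irradiated and 43.0 ± 9.32 CPM in control libraries (SD, n = 3 each), with a log2 fold change of 1.07 ± 0.28 (SE). Its edgeR adjusted p was 0.00843, and 0.0501 with library totals, with edgeR and DESeq2 adjusted p from 0.00149 to 0.0501 over 13 alternatives. MiR-125b-1-3p, the strand that reports on the Mir125b-1 hairpin of chromosome 9, was at 133, 71.9 and 96.0 CPM in irradiated thymus, against 40.7, 36.3 and 40.0 CPM in control thymus. That is a log2 fold change of 1.36 ± 0.29 (SE, edgeR adjusted p of 0.00312). MiR-125b-2-3p, from the Mir125b-2 hairpin of chromosome 16, was at 64.6, 83.8 and 66.4 CPM in irradiated thymus, against 26.1, 27.2 and 25.8 CPM in control thymus. Its log2 fold change was 1.44 ± 0.26 (SE, edgeR adjusted p of 0.00109), so both hairpins of miR-125b had a 3p strand that rose.

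MiR-125a-3p had the largest change of the 9 and the fewest reads. It had 35, 58 and 91 reads in irradiated libraries, against 9, 7 and 7 reads in control libraries. Only the irradiated libraries met the low-count filter, so its place among the tested miRNAs rests on the group where it was high. Scaled, this was 7.05 ± 2.55 CPM in irradiated and 0.931 ± 0.323 CPM in control libraries (SD, n = 3 each). The log2 fold change was 2.94 ± 0.44 (SE, edgeR adjusted p of 0.000366). Summed over the group, the 184 irradiated reads have an exact 95% Poisson interval of 158 to 213 and the 23 control reads one of 14.6 to 34.5. These intervals cover counting error only, and no molecular identifiers are described.

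**Figure D1:**
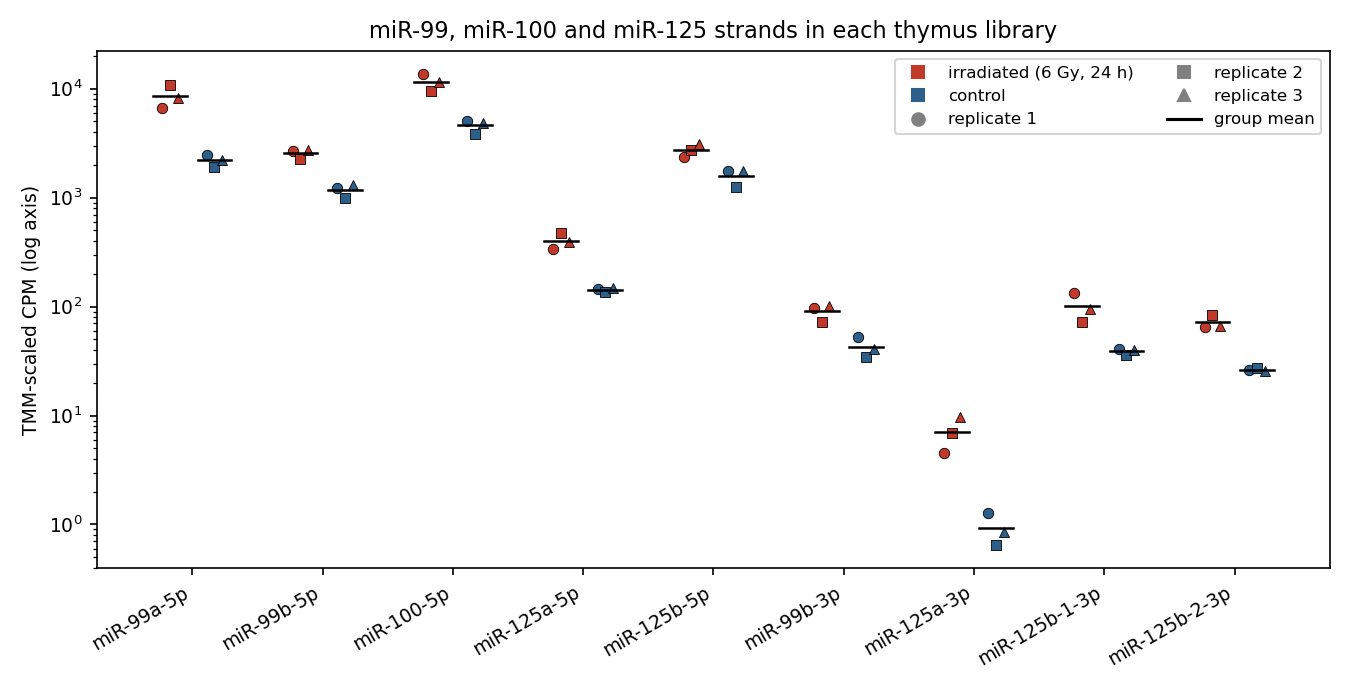
Level of each strand in each library, as TMM-scaled CPM on a log axis, with irradiated libraries (red, left) beside control libraries (blue, right) and a bar at each group mean. Circles, squares and triangles are replicates 1, 2 and 3. For all 9 strands the 3 irradiated points lie above the 3 control points, with the widest gap for miR-125a-3p (on average 7.05 CPM in irradiated and 0.931 CPM in control libraries) and the narrowest for miR-125b-5p (2744 CPM in irradiated and 1584 CPM in control libraries).

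In irradiated thymus the order by mean level was miR-100-5p, miR-99a-5p, miR-125b-5p, miR-99b-5p, miR-125a-5p, miR-125b-1-3p, miR-99b-3p, miR-125b-2-3p and miR-125a-3p. Control thymus had the same order, save that miR-99b-3p stood above miR-125b-1-3p. Neighbours did not differ beyond their libraries' spread in either group for miR-125b-5p and miR-99b-5p, nor for miR-125b-1-3p and miR-99b-3p. MiR-100-5p and miR-99a-5p overlapped among irradiated libraries but not among control libraries, where miR-100-5p averaged 2.09 times miR-99a-5p. In the same way miR-99b-3p and miR-125b-2-3p overlapped in irradiated libraries only. Levels of different miRNAs also carry the ligation preference of the library chemistry, which a comparison of 1 miRNA between groups does not.

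**Figure D2:**
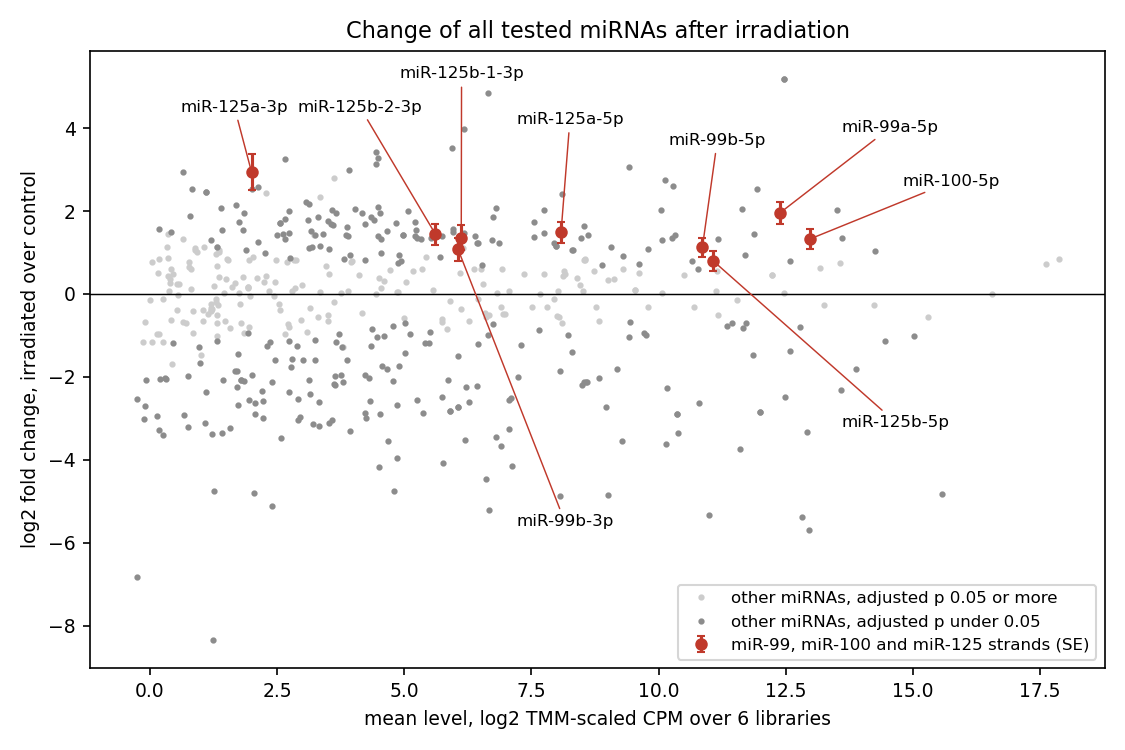
Log2 fold change (irradiated over control) of all 519 tested miRNAs against their mean level (log2 TMM-scaled CPM over the 6 libraries), with the 9 strands in red and their SE as bars. The 9 strands, from rank 17 to rank 387 by mean level, all lie above 0, while the median of all tested miRNAs is 0.01.

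The strands with the miR-99 seed held a larger part of the miRNA reads in every irradiated library than in any control library. Together miR-99a-5p, miR-99b-5p and miR-100-5p held 2.02%, 2.23% and 2.27% of the reads of irradiated libraries, against 0.723%, 0.942% and 0.828% of those of control libraries. The means were 2.17% ± 0.131 in irradiated and 0.831% ± 0.109 in control libraries (SD, n = 3 each). The miR-125 5p strands held 0.304% ± 0.0593 in irradiated and 0.179% ± 0.0206 in control libraries (SD, n = 3 each). Neither share overlapped between the groups, and each had a two-sided p of 0.1 in the exact permutation test, which is as low as groups of 3 can reach. The differences of 1.34 and 0.125 percentage points were 2.08 and 0.214 when miR-21a-5p was left out of the totals.

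The make-up of each seed family is given as a description. MiR-99a-5p supplied 29.0% to 47.9% of the miR-99 seed reads in irradiated libraries, against 26.6% to 28.2% in control libraries. MiR-99b-5p supplied 10.1% to 12.1% in irradiated and 13.9% to 15.4% in control libraries. MiR-100-5p supplied 42.0% to 59.3% in irradiated and 57.0% to 58.0% in control libraries, so its irradiated values lay on both sides of the control values. Of the miR-125 5p reads, miR-125a-5p supplied 11.2% to 14.5% in irradiated and 7.58% to 9.67% in control libraries.

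To ask whether members differed in their change, 14 log2 ratios of read counts were taken within each library, which needs no scaling between libraries. Each was tested by an exact two-sided permutation test of 3 against 3 libraries, which cannot give a p under 0.1. No ratio can therefore pass 0.05, and the smallest value after Benjamini-Hochberg adjustment over the 14 ratios was 0.233.

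Between paralogues, miR-125a-5p stood higher relative to miR-125b-5p in every irradiated library. The log2 ratio was −2.81, −2.56 and −2.98 in irradiated libraries, against −3.61, −3.22 and −3.54 in control libraries. The groups did not overlap and differed by 0.67 (exact permutation p of 0.1, adjusted 0.233). In counts, there were 12.6 to 16.98 reads of miR-125a-5p per 100 reads of miR-125b-5p in irradiated libraries, against 8.21 to 10.7 in control libraries.

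MiR-99b-5p stood lower relative to miR-99a-5p in every irradiated library. The log2 ratio was −1.32, −2.25 and −1.59 in irradiated libraries, against −1.01, −0.93 and −0.79 in control libraries. The groups did not overlap and the difference was −0.81 (exact permutation p of 0.1, adjusted 0.233). Against miR-100-5p, miR-99b-5p differed by −0.19 with the same p. There the groups all but touched, at 19.7 to 23.94 reads per 100 in irradiated and 23.99 to 26.7 in control libraries, and the difference was −0.10 without irradiated replicate 1. The ratio of miR-100-5p to miR-99a-5p was 1.03, −0.19 and 0.50 in irradiated libraries, against 1.05, 1.02 and 1.12 in control libraries on the log2 scale. These groups overlapped (difference of −0.62, exact permutation p of 0.2, adjusted 0.28). Irradiated replicate 2, the only library with more miR-99a-5p than miR-100-5p, decided much of that value, which was −0.30 without it.

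Within the chromosome 17 cluster the 3 partners were not told apart. The log2 ratio of miR-125a-5p to miR-99b-5p averaged −2.68 in irradiated and −3.03 in control libraries, a difference of 0.35 with overlap (exact permutation p of 0.2, adjusted 0.28). Without irradiated replicate 2 that difference was 0.15. For let-7e-5p against miR-99b-5p the difference was 0.18 (exact permutation p of 0.7, adjusted 0.8), with libraries from −3.00 to −1.84 in irradiated and −2.89 to −2.15 in control thymus. For let-7e-5p against miR-125a-5p it was −0.17 (exact permutation p of 0.6, adjusted 0.764). Replicate 1 had the highest let-7e-5p ratios in each group. The spread of these ratios is too wide to show that the 3 changed alike.

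MiR-125b-5p stood lower relative to the strands of the first genes in its clusters. Against the sum of miR-99a-5p and miR-100-5p, the log2 ratio of miR-125b-5p was −3.10, −2.88 and −2.66 in irradiated libraries, against −2.11, −2.19 and −2.02 in control libraries. The groups did not overlap and differed by −0.77 (exact permutation p of 0.1, adjusted 0.233). The 3p strands of the same hairpins, miR-125b-1-3p and miR-125b-2-3p, had log2 fold changes of 1.36 and 1.44, beside 1.33 for miR-100-5p and 1.96 for miR-99a-5p.

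**Figure D3:**
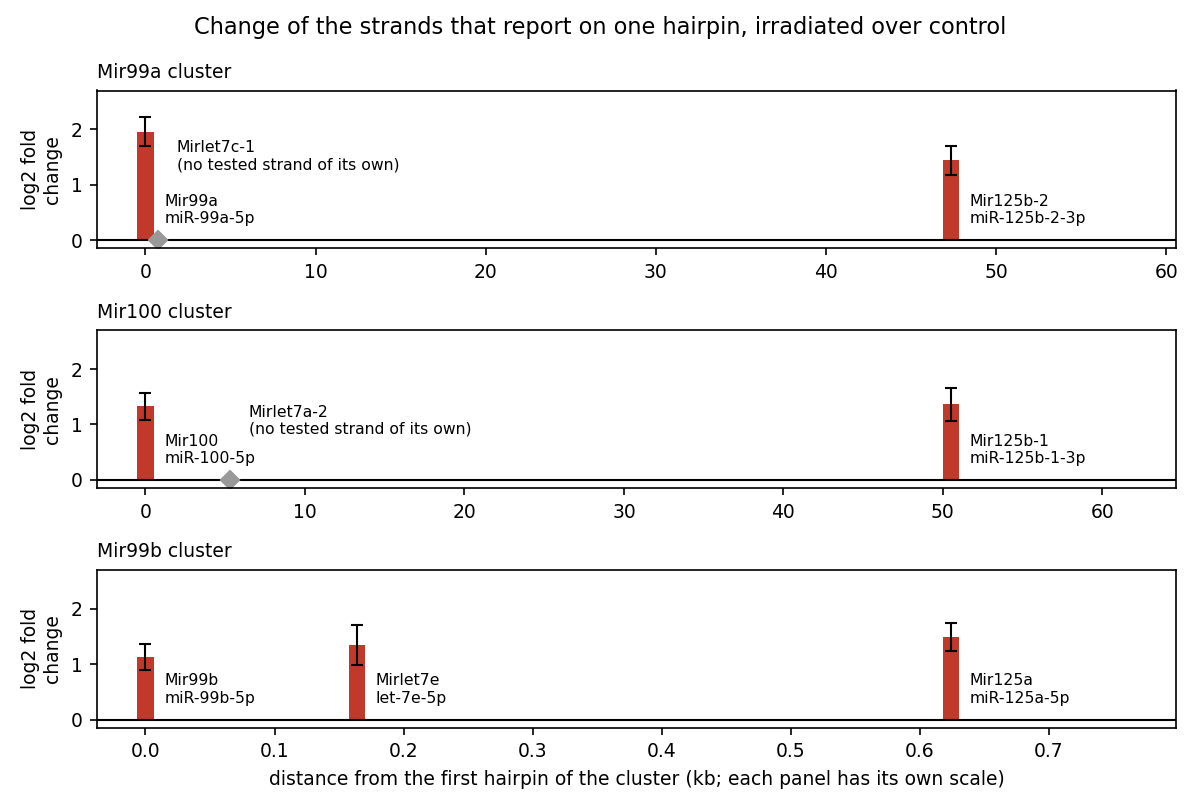
Log2 fold change (irradiated over control, bars with SE) of 1 strand that reports on each hairpin, placed by distance in kb from the first hairpin of its cluster. Each cluster has 1 panel with its own scale. In the 3 clusters the strands drawn for both ends rose, by 1.12 to 1.96. The grey diamonds mark the let-7 genes for which no strand of their own was tested. Tested but not drawn were miR-99b-3p (1.07), miR-125a-3p (2.94), miR-99a-3p (1.50) and let-7e-3p (1.10).

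The balance of the strands of a hairpin was compared in the same way. MiR-99b-3p stood at 3.17 to 3.76 reads per 100 reads of miR-99b-5p in irradiated libraries, against 3.19 to 4.35 in control libraries. Those ranges overlap (log2 difference of −0.05, exact permutation p of 0.8, adjusted 0.8). MiR-125a-3p stood at 1.37 to 2.47 reads per 100 reads of miR-125a-5p in irradiated libraries, against 0.515 to 0.944 in control libraries. These ranges did not overlap, and the log2 difference was 1.36 (exact permutation p of 0.1, adjusted 0.233), or 1.15 with 2 instead of 0.5 added to each count. The hairpin that yields both strands is shown to place them beside their log2 fold changes of 1.49 for miR-125a-5p and 2.94 for miR-125a-3p. It lies at chr17:17830812-17830879 on the plus strand (RefSeq, GRCm38.p6), with miR-125a-5p and then miR-125a-3p in capitals.
Mir125a hairpin: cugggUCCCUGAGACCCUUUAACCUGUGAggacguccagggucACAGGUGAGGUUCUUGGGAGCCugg

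For miR-125b, whose 5p strand pools 2 hairpins, the log2 ratio of miR-125b-1-3p to miR-125b-5p differed by 0.52 and that of miR-125b-2-3p by 0.63 between irradiated and control libraries. Each overlapped between the groups (exact permutation p of 0.2, adjusted 0.28). Without irradiated replicate 1 the difference for miR-125b-1-3p was 0.19. The ratio of the 3p strands to each other differed by 0.11 (exact permutation p of 0.8, adjusted 0.8), with irradiated libraries from −1.04 to 0.22 and control libraries from −0.64 to −0.42. The irradiated libraries were thus more spread than the control libraries, and a shift between the chromosome 9 and chromosome 16 hairpins was not detectable.

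**Figure D4:**
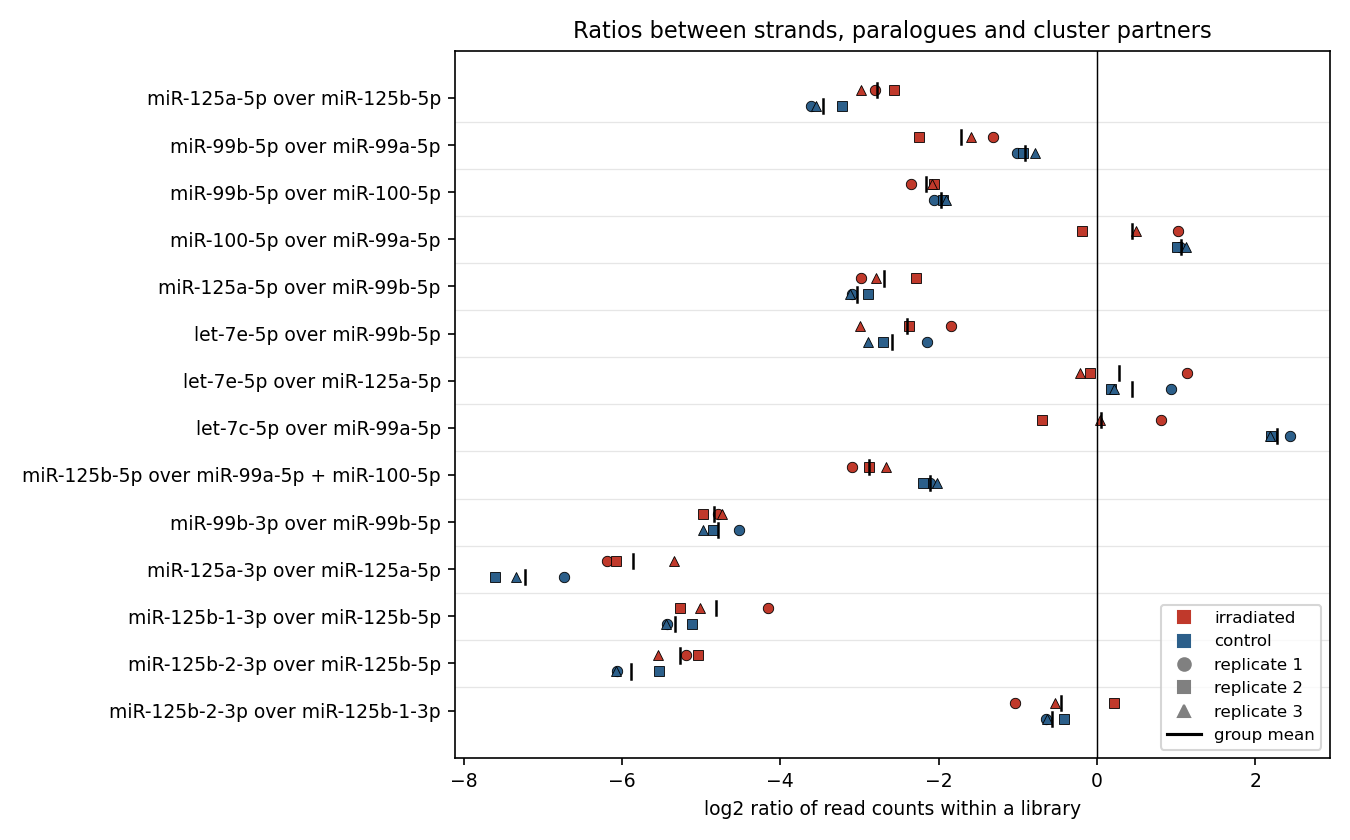
Log2 ratio of read counts within each library for the 14 pairs, with irradiated libraries (red) above control libraries (blue) in each row and a bar at each group mean. The groups separate most for let-7c-5p over miR-99a-5p (on average 0.05 in irradiated and 2.27 in control libraries) and coincide most for miR-99b-3p over miR-99b-5p (−4.83 in irradiated and −4.78 in control libraries).

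The other strands of the same loci were counted at widely different depths. Let-7e-5p, which has a single gene between Mir99b and Mir125a, was at 742, 440 and 340 CPM in irradiated thymus, against 275, 153 and 174 CPM in control thymus. It rose by 1.34 ± 0.36 on the log2 scale (SE, edgeR adjusted p of 0.00909). The adjusted p was 0.0514 without control replicate 2, within 0.000505 to 0.0514 over 13 alternatives. Let-7c-5p, which has another gene elsewhere in the genome, averaged 8906 ± 2486 CPM in irradiated and 10738 ± 2388 CPM in control libraries (SD, n = 3 each), a log2 fold change of −0.27 ± 0.28 (edgeR adjusted p of 0.418). Its ratio to miR-99a-5p, the neighbouring gene on chromosome 16, was lower in every irradiated library. On the log2 scale that ratio was 0.81, −0.69 and 0.04 in irradiated libraries, against 2.44, 2.19 and 2.18 in control libraries (difference of −2.22, exact permutation p of 0.1, adjusted 0.233).

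Let-7a-5p, made from Mirlet7a-2 and another gene elsewhere, fell by 0.80 on the log2 scale (5101 ± 696 CPM in irradiated and 8908 ± 2241 CPM in control libraries, SD, n = 3 each, edgeR adjusted p of 0.0215). That call was lost under 8 of 13 alternatives, with edgeR and DESeq2 adjusted p from 0.00445 to 0.313 over the 13. Among those 8 were the fits without irradiated replicate 2 (0.14), irradiated replicate 3 (0.146), control replicate 1 (0.209) and control replicate 3 (0.102). The minor strands that report on the let-7 genes of the chromosome 16 and chromosome 9 clusters were too sparse to test. Let-7c-1-3p had 10, 16 and 12 reads in irradiated libraries, against 4, 0 and 6 in control libraries, and let-7a-2-3p had 9, 7 and 6 reads in irradiated libraries, against 6, 6 and 5 in control libraries. A count of 0 allows up to 3 reads. Let-7e-3p, with a log2 fold change of 1.10 ± 0.47 (SE), did not pass (edgeR adjusted p of 0.0643). It passed under 5 of 13 alternatives, among them those without irradiated replicate 1 (0.0244) and irradiated replicate 3 (0.0453), with edgeR and DESeq2 adjusted p from 0.0127 to 0.178 over the 13. Of the listed let-7 family 5p strands with miR-98-5p, 1 of 9 was higher (let-7e-5p), 5 were lower and 3 did not pass, with a median log2 fold change of −0.80. Among all tested miRNAs 27.7% were higher and 33.5% lower, with a median of 0.01.

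The remaining strands of the miR-99a and miR-100 hairpins were also near the limit of counting. MiR-99a-3p, which has the same seed as miR-99b-3p, had 17, 18 and 15 reads in irradiated libraries, against 3, 7 and 8 reads in control libraries. It rose by 1.50 ± 0.46 on the log2 scale (edgeR adjusted p of 0.0167), a call lost under 5 of 13 alternatives, among them those without control replicate 1 (0.0629) and control replicate 2 (0.0837). MiR-100-3p had 10, 14 and 7 reads in irradiated and 8, 9 and 2 reads in control libraries and was not tested. MiR-351-5p, the other carrier of the miR-125 seed, comes from the X chromosome and was looked up after values were seen. It was at 7.03 ± 3.59 CPM in irradiated and 6.77 ± 1.25 CPM in control libraries (SD, n = 3 each), a log2 fold change of 0.06 ± 0.44 (edgeR adjusted p of 0.917).

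Among 311 miRNAs with a mean of at least 10 CPM, those closest in profile to each 5p strand were found by the root mean square (RMS) difference of centred log2 CPM over the 6 libraries. This is a description over libraries that all miRNAs share. The closest to miR-99a-5p was miR-126a-3p, an endothelial miRNA (RMS of 0.07, log2 fold change of 2.02), followed by miR-214-5p (0.19) and miR-30c-2-3p (0.23). MiR-100-5p was closest to miR-205-5p, a miRNA of stratified and thymic epithelium (RMS of 0.10, log2 fold change of 1.36), then to miR-27b-5p (0.11) and its cluster partner miR-125b-1-3p (0.13). MiR-99b-5p was closest to miR-222-3p (0.14), miR-100-5p (0.14) and miR-204-5p (0.14). MiR-125a-5p was closest to miR-10b-5p, a miRNA of a Hox cluster (RMS of 0.04, log2 fold change of 1.45), then to miR-708-5p (0.07) and miR-125b-2-3p (0.09). MiR-125b-5p was closest to miR-339-5p (0.12), miR-101a-3p (0.14) and miR-29a-3p (0.15).

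Library totals were 7730641 to 9287017 reads. The marker counts that follow stand beside shares of 27.7% called higher and 33.5% called lower among all tested miRNAs. Of the marker miRNAs listed for thymocytes and lymphoid cells 9 of 10 were lower, and their summed level was 7712 to 12612 CPM in irradiated and 110949 to 181209 CPM in control libraries, with all 10 detected in the table. Of those for fibroblasts and smooth muscle 4 of 7 were higher, with sums of 193448 to 308479 CPM in irradiated and 90159 to 238035 CPM in control libraries. Of the endothelial markers 1 of 2 was higher (15678 to 24542 CPM in irradiated and 5059 to 5756 CPM in control libraries), and of the epithelial markers 4 of 7 (20681 to 28826 CPM in irradiated and 10193 to 13175 CPM in control libraries). Red-cell markers (3 of 4 higher) summed to 608 to 5101 CPM in irradiated and 483 to 731 CPM in control libraries. Striated-muscle markers (3 of 4 tested higher) summed to 608 to 20146 CPM in irradiated and 207 to 486 CPM in control libraries, and myeloid markers (1 of 2 higher) to 44.2 to 158 CPM in irradiated and 30.7 to 57.2 CPM in control libraries. No listed marker was at 0 in all libraries.

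The endothelial, epithelial and striated-muscle sums were higher in every irradiated library than in any control library, as the 9 strands were. The endothelial sum was mostly miR-126a-3p (18701 CPM in irradiated and 4615 CPM in control libraries on average). MiR-126a-5p overlapped between the groups (log2 fold change of 0.09, edgeR adjusted p of 0.768). The lymphoid sum was lower in every irradiated library, and the fibroblast and smooth-muscle, red-cell and myeloid sums overlapped between the groups. Most of the fibroblast and smooth-muscle sum was miR-143-3p (251202 CPM in irradiated and 151488 CPM in control libraries on average), which itself overlapped. The 4 markers of that list called higher each had all irradiated libraries above all control libraries. Their log2 fold changes ran from 1.43 (miR-199a-5p) to 3.07 (miR-199a-3p). The 3 markers of the list that did not pass overlapped between the groups. The part of the marker miRNAs of all lists in the result was not tested. Irradiated replicate 2 had the highest red-cell, striated-muscle, endothelial, and fibroblast and smooth-muscle sums of the irradiated libraries, and the most miR-99a-5p. Without it all 9 strands passed, and the log2 fold change of miR-99a-5p was 1.96. Irradiated replicate 1 had muscle and red-cell sums of 608 CPM each. Its muscle sum still lay above the control range of 207 to 486 CPM. Its endothelial sum of 15678 CPM lay above the control range of 5059 to 5756 CPM. All 9 strands were above every control library in irradiated replicate 1. Without that replicate, which had the highest miR-100-5p and miR-125b-1-3p, their log2 fold changes were 1.18 and 1.10.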

How the data were processed

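Small-RNA libraries of thymus from 3 irradiated and 3 control mice were analysed, grouped by the treatment label. RNA was isolated with TRIzol and libraries were made with NEBNext kits, per the labels' protocols, which name the molecule polyA RNA. The authors deposited a table with a read count per mature miRNA and library, and beside it log2 fold changes and adjusted p-values of their own. DESeq2 1.10.1 is named in the submitters' processing notes. Not given in the sources used here are the aligner, the counting tool and the build. A further 6 columns of counts were not used.

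The counts were fitted with edgeR 4.0.16 (R 4.3.3): TMM factors, filterByExpr defaults, robust quasi-likelihood test, Benjamini-Hochberg over the 519 miRNAs that passed, threshold 0.05. SE is the absolute log2 fold change over the square root of F. All 9 strands passed the count filter. MiR-125a-3p, and miR-99a-3p outside the 9, met it in their irradiated libraries only. Ratios (0.5 added to each count) and shares were tested by exact permutation over libraries in Python 3.11.15. In the authors' deposited table the log2 fold changes of the 9 strands ran from 0.85 for miR-125b-5p to 3.00 for miR-125a-3p, with adjusted p-values up to 0.0156, from these same libraries. Alternatives were other scalings, no filter, DESeq2 1.42.0, a replicate block, miR-21a-5p left out and each library left out. The text names the 9 strands, the let-7 and remaining strands of the same loci, and the 3 miRNAs closest in profile to each 5p strand. Outside that rule it names miR-351-5p, chosen after its values were seen, miR-21a-5p as a processing choice and miR-98-5p as part of the let-7 list. It also names markers of the endothelial and the fibroblast and smooth-muscle lists, chosen after their values were seen. Members and lists were chosen with earlier results of these data known. Library totals were 7730641 to 9287017 reads, and no replicates were copies of each other.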

Additional observations from a re-analysis of the deposited data

How the results depend on the processing

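All 9 strands were called higher under 9 of the 13 alternatives, 8 without the low-count filter, without control replicate 2 or without irradiated replicate 3, and 7 with library totals. The strands lost were miR-125b-5p and, with library totals, miR-99b-3p. The median log2 fold change of all tested miRNAs, 0.01 with TMM factors, was 0.12 by median of ratios, −0.13 with library totals, 0.44 with upper-quartile factors and 0.22 without miR-21a-5p, while that of the 9 strands was 1.36, 1.50, 1.21, 1.82 and 1.57. Counts of called miRNAs ran from 266 to 374 over the fits that left out a library. Ratios that changed direction when a library was left out ran from −0.10 to 0.48 for let-7e-5p over miR-99b-5p, −0.59 to 0.0803 for let-7e-5p over miR-125a-5p, −0.15 to 0.0775 for miR-99b-3p over miR-99b-5p and −0.22 to 0.41 for miR-125b-2-3p over miR-125b-1-3p, and the cause was not tested. With the replicate block 298 miRNAs were called in place of 318, the 9 strands among them. Deviations of same-numbered libraries correlated at 0.124, −0.0176 and 0.248, against −0.271 to 0.110 for libraries of other numbers. So few values do not settle whether the numbers pair the mice, and the main fit took the mice as unpaired. The sign-flip test of ratios in pairs cannot go below 0.25. Depth limits the 3p strands with few reads, miR-125a-3p above all, and 3 libraries per group limit every ratio.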
